A study of Mus musculus with 2 samples.

Results

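The interleukin 1 family ligands and their natural antagonists were followed as 7 genes of 31054 features, by cell class, in single cells sorted for the red fluorescent protein mCherry from mouse tumours. The 4 agonists were Il1a, Il1b, Il18 and Il1f9, and the 3 antagonists were Il1rn, Il1r2 and Il18bp. All 7 genes, chosen by symbol, were present in both libraries. The young library came from tumours of mice 4 weeks old and the adult library from tumours of mice 24 weeks old, and both carry the stage label d7. Tumours were pooled and sorted before each library was made with the droplet-based 10x Genomics 3' v2 kit, which marks every captured RNA molecule with a unique molecular identifier (UMI). The labels name no strain, tumour line, genotype or number of animals and do not say which cells were engineered to make mCherry. The series title concerns cross-presentation of tumour antigen in young hosts and CD8 T cell differentiation. Each age is a single library, so no comparison between them could be tested. Age cannot be told apart from the pool, the sort or the library, and every interval given is a 95% interval for counting error only.

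Interleukin 1 alpha (Il1a) and interleukin 1 beta (Il1b) bind the same signalling receptor and switch on inflammatory genes through MyD88 and NF-kB. Interleukin 18 (Il18) acts through a related receptor, mainly on T cells and natural killer cells, and Il1f9 encodes the gamma form of interleukin 36, an agonist of another receptor of the family. Interleukin 1 beta and interleukin 18 are made as inactive precursors that caspase-1 cleaves in inflammasomes. Of the antagonists, the product of Il1rn occupies the interleukin 1 receptor without signalling. Il1r2 encodes a decoy receptor without a signalling domain, and Il18bp encodes a soluble protein that captures interleukin 18. RNA levels say nothing of cleavage or release.

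The genes lie in 5 places on the mouse genome (GRCm38, the mm10 build, with GENCODE M21 positions). Il1a (chr2:129299610-129309972) and Il1b (chr2:129364570-129371139) are neighbours on the minus strand of chromosome 2. Il1f9 (chr2:24186476-24193568) and Il1rn (chr2:24336853-24351494) lie together on its plus strand. Il18 is at chr9:50554827-50581840 on the plus strand, Il1r2 at chr1:40074079-40125231 on the plus strand, and Il18bp at chr7:102014885-102018690 on the minus strand.

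RefSeq promoter windows (GRCm38.p6) were available for all 7 genes. Each holds 300 bases, from 250 before to 50 after an annotated start, on the strand of the gene. The windows printed here are those of Il1a and Il1b, whose RNAs varied together from cell to cell, of Il1rn, the most abundant antagonist, and of Il18 and Il18bp, whose levels differed between the libraries. Capitals mark matches to 5 motifs searched on both strands: AP-1 (TGANTCA), NF-kB (GGGA, any 4 bases, CC), PU.1 (GAGGAAG), an interferon response element (GAAA, any 2 bases, GAAA) and C/EBP (TTGCNNAA). In Il1a (chr2:129309923-129310222, minus strand) the capitals are a PU.1 match and an AP-1 match. The Il1b window (chr2:129371090-129371389, minus strand) held none of the 5. In Il1rn (chr2:24336610-24336909, plus strand, the first of 3 annotated starts) they are an AP-1 and an NF-kB match. The Il18 window (chr9:50554450-50554749, plus strand) held none, and the Il18bp window (chr7:102018183-102018482, minus strand) held a C/EBP match.
Il1a: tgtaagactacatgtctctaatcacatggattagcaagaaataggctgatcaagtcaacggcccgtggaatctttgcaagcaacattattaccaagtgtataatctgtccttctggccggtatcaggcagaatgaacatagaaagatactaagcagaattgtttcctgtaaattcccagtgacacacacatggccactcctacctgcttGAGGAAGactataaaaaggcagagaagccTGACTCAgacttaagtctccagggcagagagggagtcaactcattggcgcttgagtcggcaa
Il1b: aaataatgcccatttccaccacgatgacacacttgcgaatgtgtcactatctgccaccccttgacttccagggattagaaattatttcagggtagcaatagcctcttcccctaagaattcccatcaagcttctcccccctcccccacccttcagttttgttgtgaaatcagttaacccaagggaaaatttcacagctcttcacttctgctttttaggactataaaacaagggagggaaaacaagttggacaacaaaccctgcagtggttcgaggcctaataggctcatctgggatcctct
Il1rn: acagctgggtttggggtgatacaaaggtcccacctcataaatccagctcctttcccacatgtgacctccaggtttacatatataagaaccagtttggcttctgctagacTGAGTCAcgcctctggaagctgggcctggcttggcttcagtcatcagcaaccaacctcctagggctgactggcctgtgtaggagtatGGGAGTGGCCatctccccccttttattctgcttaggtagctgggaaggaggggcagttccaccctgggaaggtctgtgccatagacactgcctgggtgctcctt
Il18: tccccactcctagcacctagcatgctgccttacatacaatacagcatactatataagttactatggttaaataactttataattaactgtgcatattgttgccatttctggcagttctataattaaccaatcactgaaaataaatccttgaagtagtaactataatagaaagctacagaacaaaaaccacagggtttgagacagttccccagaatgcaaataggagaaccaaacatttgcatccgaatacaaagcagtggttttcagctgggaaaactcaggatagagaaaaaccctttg
Il18bp: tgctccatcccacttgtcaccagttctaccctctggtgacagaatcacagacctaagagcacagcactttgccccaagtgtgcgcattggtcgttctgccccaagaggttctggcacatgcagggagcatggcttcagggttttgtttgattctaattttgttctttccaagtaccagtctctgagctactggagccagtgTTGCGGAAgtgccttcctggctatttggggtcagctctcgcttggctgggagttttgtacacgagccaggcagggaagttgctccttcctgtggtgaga
Among 32851 such windows, AP-1 letters occurred in 7.81%, NF-kB letters in 20.7%, PU.1 letters in 13.6%, C/EBP letters in 10.8% and the interferon response letters in 3.44%. Il1f9 held an NF-kB match 13 bases after its start, and Il1r2 and the other 2 Il1rn windows held none of the motifs. A match is a run of letters, not a known binding site.

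Barcodes numbered 7558 (young, 84862471 UMIs) and 6279 (adult, 70988070 UMIs), of which 7090 and 5774 were kept as cells. A total of 111 barcodes occurred in both libraries (1.47% of the young and 1.77% of the adult barcodes). Csf1r cells, with at least 1 UMI of the macrophage growth factor receptor and under 2 UMIs of mCherry, made up 5342 young and 4213 adult cells (75.4% and 73.0%). Besides Csf1r, which the rule used, the other 10 macrophage markers were all detected and summed to 16199 and 13998 CPM (UMIs of a gene per 1000000 UMIs of the class). The neutrophil-like cells (115 and 189) carried at least 1% of their UMIs in S100a8 and S100a9 and at most 1 UMI of Csf1r. Besides those 2 genes, the other 8 neutrophil markers were detected, among them the chemokine receptor Cxcr2 at 413 and 304 CPM, against 0.887 and 2.01 CPM in Csf1r cells. The Ccr7 cells (67 and 72) had at least 2 UMIs of Ccr7 and none of Cd3. All 10 markers of mature dendritic cells, among them Ccr7 itself, were detected in them. The same 10 were also detected in Csf1r cells and in the mCherry-high cells described next, so levels say more than detection. Fscn1 was at 616 and 851 CPM in Ccr7 cells, 0.733 and 0.907 CPM in Csf1r cells and 69.5 and 81.9 CPM in mCherry-high cells. The mCherry-high cells (423 and 476; at least 10 UMIs of mCherry) held 3290 and 3408 CPM of mCherry. Keratinocyte markers summed to 34.3 and 37.5 CPM in them, nearly all of it Krt10 (33.6 and 36.8 CPM), with Krt5 and Krt1 at 0. Fibroblast markers summed to 120 and 171 CPM, mostly Dcn at 111 and 155 CPM, against 1.33 and 6.86 CPM in Csf1r cells, and T cell markers to 7.84 and 5.98 CPM. A set of 40 young and 102 adult T cells, with at least 2 UMIs of Cd3 and under 2 of mCherry, served as a reference that should lack these ligands. Another 23 and 16 cells that met this rule were counted as Csf1r cells, so the T cells kept had no Csf1r UMI. A total of 1103 and 722 cells met no rule. Although the sort was for mCherry, 84.6% of young and 84.1% of adult Csf1r cells had no UMI of it. Their rule, which took only cells under 2 mCherry UMIs, raises that share. Among the cells that met no rule, 150 and 113 had Csf1r and 2 to 9 mCherry UMIs. A Csf1r UMI was also present in 197 and 174 mCherry-high cells.

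Csf1r cells held most of the family's RNA, and neutrophil-like cells the highest concentration. In the young and adult libraries Csf1r cells contributed 85.2% and 85.6% of all Il1b UMIs, 81.8% and 82.6% of Il1rn UMIs and 86.7% and 88.4% of Il18bp UMIs. Relative to its total RNA, however, a neutrophil-like cell carried several times more of most members, and only Il18bp was not higher there. Il1f9 was the exception to the dominance of Csf1r cells: neutrophil-like cells were 1.62% and 3.27% of cells but held 40.1% and 51.6% of its UMIs.

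**Figure D1:**
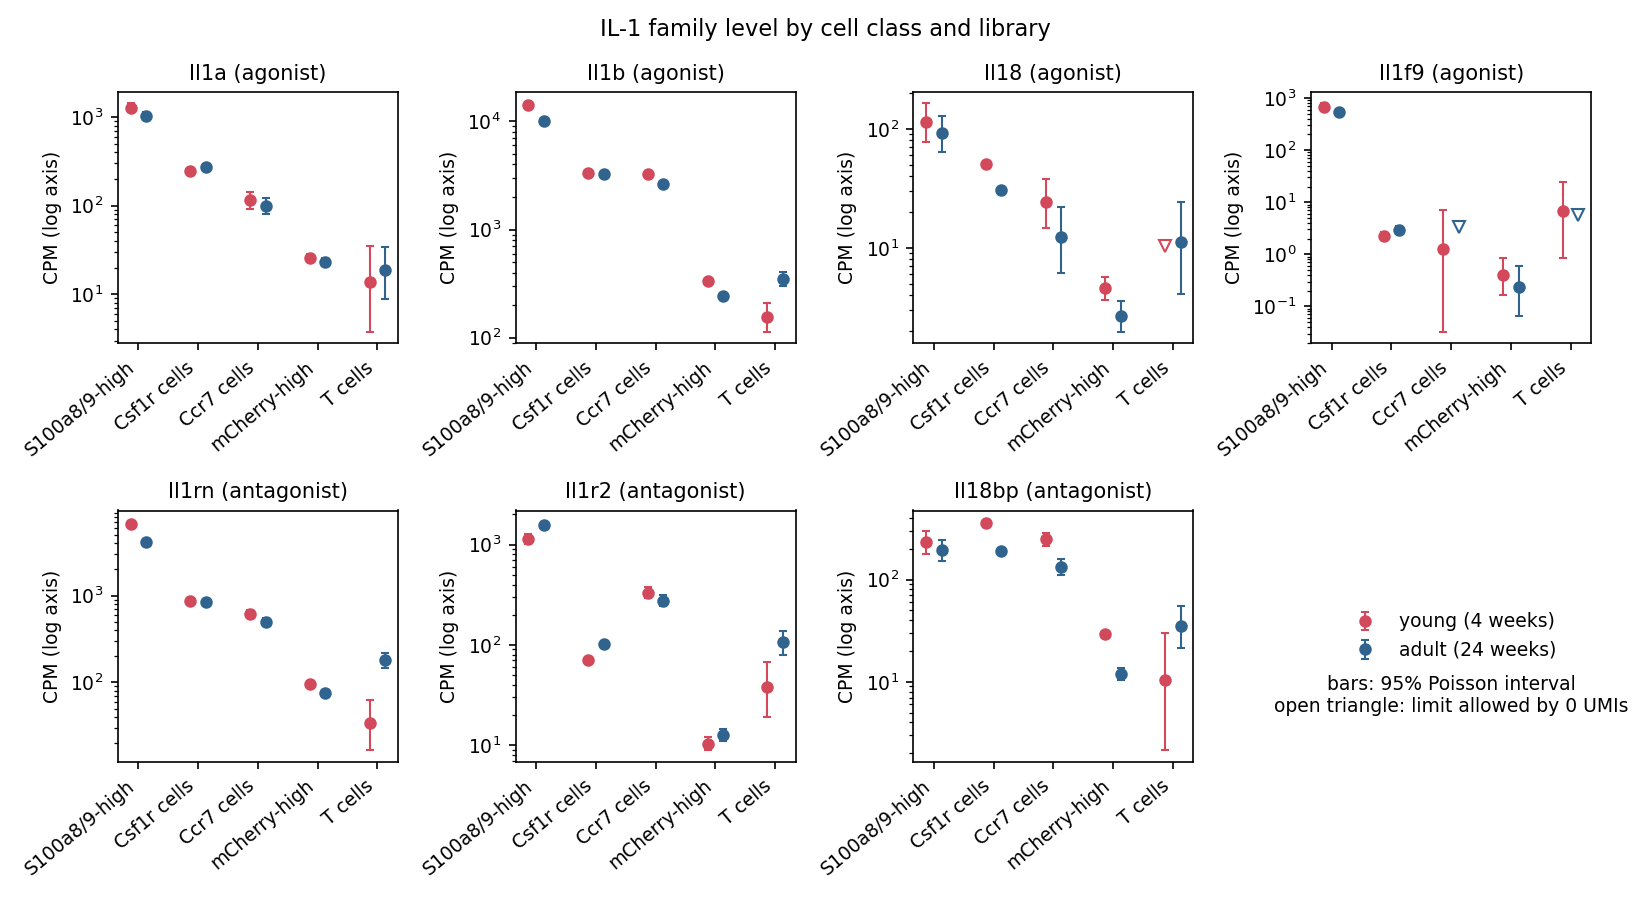
Level of each gene in CPM (log axis) in 5 cell classes, with the young library in red and the adult library in blue; bars are 95% Poisson intervals of the summed UMIs and open triangles the limit that 0 UMIs allow. The other 6 genes are highest in the neutrophil-like (S100a8/9-high) cells, while Il18bp in the young library is highest in the Csf1r cells at 362 CPM.

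Among the agonists, Il1b was the most abundant in all 4 classes. Its level in Csf1r cells was 3316 CPM (3301 to 3331) in the young and 3265 CPM (3248 to 3281) in the adult library. Neutrophil-like cells reached 14207 and 10121 CPM, which was 4.28-fold and 3.10-fold above Csf1r cells. Ccr7 cells, at 3262 and 2642 CPM, lay at or a little below Csf1r cells. Of these Ccr7 cells, 33 young and 38 adult ones also met the rule for Csf1r cells. As a count per cell the order was different, because neutrophil-like cells held few UMIs (medians of 2127 and 1900, against 10324 and 10078 in Csf1r cells): 32.3 and 20.99 Il1b UMIs per neutrophil-like cell, 36.4 and 35.9 per Csf1r cell and 38.0 and 32.5 per Ccr7 cell. In cells thinned to 2000 UMIs, Il1b was detected in 86.9% of young and 86.7% of adult Csf1r cells, and in 26.5% and 34.9% of T cells. The T cell share, from 34 and 83 cells, served as a reference, and the source of the Il1b UMIs in T cells was not tested. Without thinning the shares were 97.3% and 97.6% of Csf1r cells and 52.5% and 55.9% of T cells (medians of 5585 and 4181 UMIs).

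Il1a followed the same order at a lower level. Csf1r cells held 242 CPM (young) and 271 CPM (adult), neutrophil-like cells 1276 and 1031 CPM, and Ccr7 cells 115 and 99.5 CPM. As a count per cell, neutrophil-like cells held 2.90 and 2.14 Il1a UMIs, against 2.66 and 2.98 in Csf1r cells. One Il1a UMI was counted for every 13.7 and 12.1 Il1b UMIs in Csf1r cells and for every 28.3 and 26.6 in Ccr7 cells. These counts mark each molecule once near its 3' end, so genes are set side by side without a length term; capture can still differ between genes.

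Il18 was a minor agonist RNA, at 50.8 and 30.9 CPM in Csf1r cells and 115 and 91.9 CPM in neutrophil-like cells, the latter from 30 and 36 UMIs. As a count per cell, neutrophil-like cells held less of it, 0.26 and 0.19 UMIs against 0.56 and 0.34 in Csf1r cells. Ccr7 cells held 24.3 and 12.4 CPM. Il1f9 was high in neutrophil-like cells alone among the 4 classes. It reached 680 and 531 CPM there, in 55.7% and 39.2% of cells, against 2.25 and 2.91 CPM in Csf1r cells, in 1.57% and 1.73% of cells, a ratio of 302 and 182. In the adult Csf1r cells 1 cell held 27 of the 135 Il1f9 UMIs. Ccr7 cells had 1 UMI (young) and 0 UMIs of Il1f9 (adult); the count of 0 allows up to 3.39 CPM.

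Among the antagonists, Il1rn was the most abundant in all 4 classes. Its level was 869 CPM (862 to 877) in young and 845 CPM (836 to 853) in adult Csf1r cells. Neutrophil-like cells held 6725 and 4128 CPM, 7.74-fold and 4.89-fold more, and Ccr7 cells 617 and 496 CPM. As a count per cell, neutrophil-like cells held 15.3 and 8.56 Il1rn UMIs, against 9.54 and 9.29 in Csf1r cells. The decoy receptor Il1r2 had the steepest difference after Il1f9. It stood at 71.3 and 101 CPM in Csf1r cells, 333 and 277 CPM in Ccr7 cells and 1135 and 1556 CPM in neutrophil-like cells, which was 15.9-fold and 15.4-fold over Csf1r cells. Il1r2 was detected in 28.7% of young and 32.8% of adult Csf1r cells, and in 10.0% and 12.6% after thinning. After thinning, 99.9% of its UMIs in the young and 86.2% in the adult library lay in the 10% of cells richest in it. With so few cells holding a UMI, that share cannot show whether the RNA was concentrated.

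Il18bp was the member with no higher level in neutrophil-like than in Csf1r cells beyond its interval in either library. Csf1r cells held 362 CPM (357 to 366) in the young and 192 CPM (188 to 196) in the adult library, with a UMI in 88.4% and 71.5% of cells. Neutrophil-like cells held 233 and 194 CPM, from 61 and 76 UMIs, and Ccr7 cells 248 and 133 CPM. The 10 macrophage markers summed to 3072 and 2408 CPM in the neutrophil-like cells and to 5561 and 6026 CPM in the Ccr7 cells; their part in the Il18bp level there was not tested.

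Counted over the family, 6 of 7 members were at least 1.5-fold higher in neutrophil-like than in Csf1r cells in both libraries, against 19.7% of all genes in the young and 19.7% in the adult library. The genes tested were those at 10 CPM or more in at least 1 of the 2 classes compared. Il18bp was lower in the young library (1.55-fold; 55.4% of all genes were lower) and was not past this fold in the adult library (58% of all genes). In Ccr7 cells 1 of 6 measured members, Il1r2, was higher in each library (16.8% and 17.8% of all genes). There, Il1a and Il18 were lower in both libraries and Il1rn also in the adult library (24.7% and 22.6% of all genes).

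In mCherry-high cells all 6 measured members were lower than in Csf1r cells, in both libraries (36.4% and 34.9% of all genes), and 0 were higher (34% and 34.7%). Il1b stood at 331 and 245 CPM, Il1rn at 96.7 and 76.6, Il18bp at 29.0 and 11.9, Il1a at 25.6 and 23.2 and Il1r2 at 10.3 and 12.7 CPM. The 10 macrophage markers other than Csf1r were present too, at a sum of 1281 and 762 CPM. Per cell, the 7 members held between 29.8% and 67.0% (young) and between 20.3% and 40.8% (adult) of their UMIs in a Csf1r cell. The 10 macrophage markers spanned 24.5% to 36.5% and 15.9% to 57.5%. The members' median share, 39.2% and 27.9%, was above that of the markers, 28.3% and 18%, and 5 of 7 members in the young library but 0 in the adult library lay above the highest marker. That marker was Mertk in both libraries, from only 23 and 18 UMIs in mCherry-high cells. Apart from Mertk, the highest markers were Lyz2 at 31.8% (young) and Adgre1 at 21.4% (adult). Of the members only Il18bp, at 29.8% and 20.3%, lay below these. Csf1r itself, not among the 10, was at 36.2% (young) and 21.6% (adult). It lay above Il18bp in both libraries and above Il18, at 33.5%, in the young library. The highest member share in the young library, 67.0%, was that of Il1f9, from only 7 UMIs in mCherry-high cells. Those mCherry-high cells that had no Csf1r UMI (226 young and 302 adult cells) were lower: Il1b was at 120 and 95.8 CPM in them, against 472 and 414 CPM in the mCherry-high cells with a Csf1r UMI. Median depth differed between these 2 sets (22338 and 25672 UMIs without and 52012 and 43620 UMIs with Csf1r). Across the same split the 10 macrophage markers summed to 386 and 283 CPM without and 1875 and 1304 CPM with a Csf1r UMI, each of them higher with it in both libraries. Their part in the members' levels was not tested.

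Set against each other, agonist RNA exceeded antagonist RNA in each of the 4 classes. Csf1r cells held 0.361 antagonist UMIs per agonist UMI in the young library (0.358 to 0.364) and 0.319 in the adult library (0.316 to 0.322). In neutrophil-like cells the ratio was higher, at 0.497 (0.472 to 0.524) and 0.499 (0.475 to 0.525). Ccr7 cells, at 0.352 and 0.329, and mCherry-high cells, at 0.376 and 0.373, had ratios near those of Csf1r cells.

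The antagonists that made up these sums differed between classes. Il1rn per Il1b UMI was 0.473 and 0.408 in neutrophil-like cells, 0.262 and 0.259 in Csf1r cells and 0.189 and 0.188 in Ccr7 cells, and these intervals did not overlap between classes. Il1r2 per UMI of Il1a plus Il1b was 0.0200 and 0.0286 in Csf1r cells, 0.0733 and 0.140 in neutrophil-like cells and 0.0986 and 0.101 in Ccr7 cells. Ccr7 cells were thus the poorest of these 3 classes in receptor antagonist and, beside neutrophil-like cells, richer in the decoy receptor than Csf1r cells. Il18bp exceeded its ligand in all 4 classes. There were 7.12 and 6.20 Il18bp UMIs per Il18 UMI in Csf1r cells and 10.2 and 10.7 in Ccr7 cells (intervals 6.36 to 17.3 and 5.78 to 22.1), but only 2.03 and 2.11 in neutrophil-like cells (1.29 to 3.26 and 1.40 to 3.23).

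**Figure D2:**
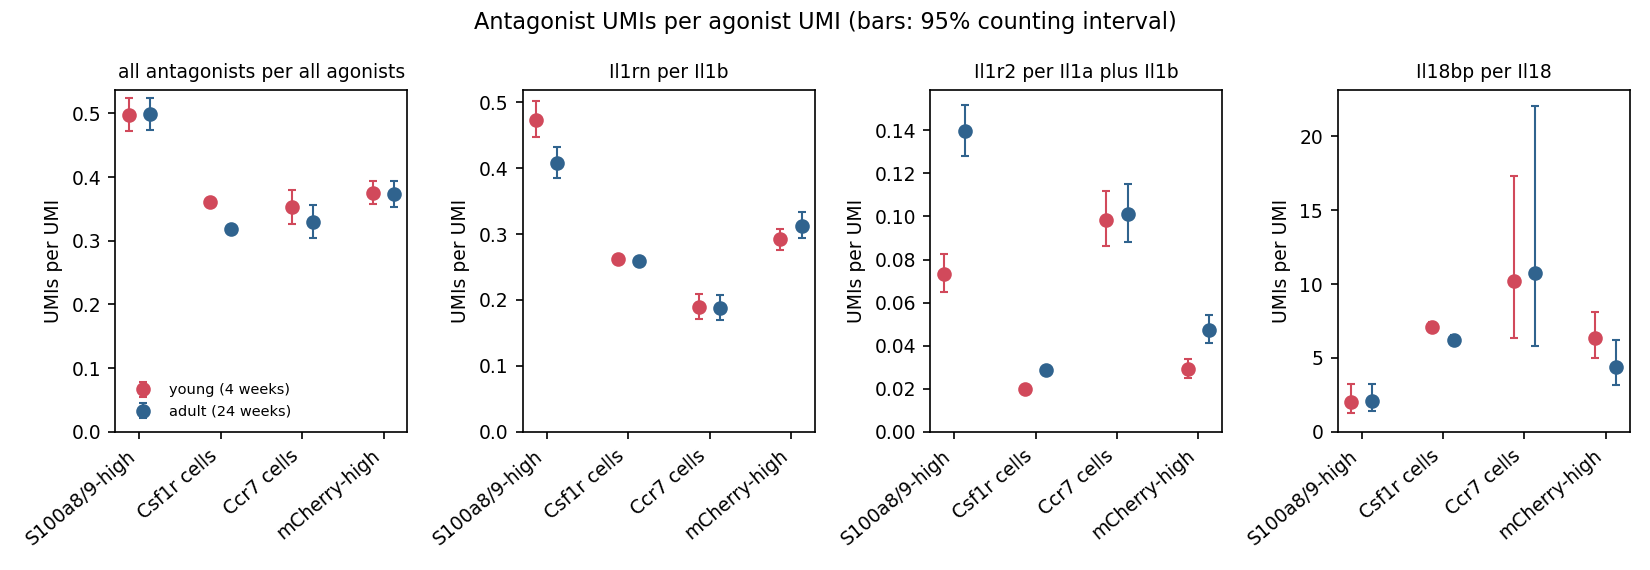
Antagonist UMIs per agonist UMI in 4 cell classes of the young (red) and adult (blue) library, for all members and for 3 pairs, on axes that start at 0; bars are 95% counting intervals. Il1rn per Il1b is highest in neutrophil-like (S100a8/9-high) cells at 0.473 and 0.408, and Il18bp per Il18 is lowest there at 2.03 and 2.11.

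Within Csf1r cells the family was compared between the young and the adult library. Of the 6 measured members 2 were at least 1.5-fold higher in the young library, Il18 and Il18bp, and 0 were lower, against 3.38% and 2.48% of the 6481 genes tested. Il18bp, at 362 against 192 CPM, was 1.89-fold higher (1.84 to 1.94). Il18, at 50.8 against 30.9 CPM, was 1.64-fold higher (1.54 to 1.75). The ligand and its binding protein were thus both higher in the young library. Because the difference in Il18bp was the larger, the Il18bp to Il18 ratio was 7.12 in the young (6.85 to 7.40) and 6.20 in the adult library (5.86 to 6.56). When each Csf1r cell was given the same weight Il18 dropped to a log2 ratio of 0.49, below 1.5-fold.

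Of the interleukin 1 arm, Il1b and Il1rn were close between the libraries in these cells. Il1b had a ratio of 1.02 (1.01 to 1.02) and Il1rn one of 1.03 (1.02 to 1.04). Their log2 ratios, 0.02 and 0.04, were about the size of the shift of 0.04 that separates scaling to the class sum from scaling to the median gene, and neither kept its sign under all alternatives. Il1a was 1.12-fold lower in the young library (1.09 to 1.14). Il1r2 was 1.42-fold lower (1.36 to 1.48), short of the 1.5-fold limit. The members' median log2 ratio was 0.03, beside 0.04 for all genes tested.

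**Figure D3:**
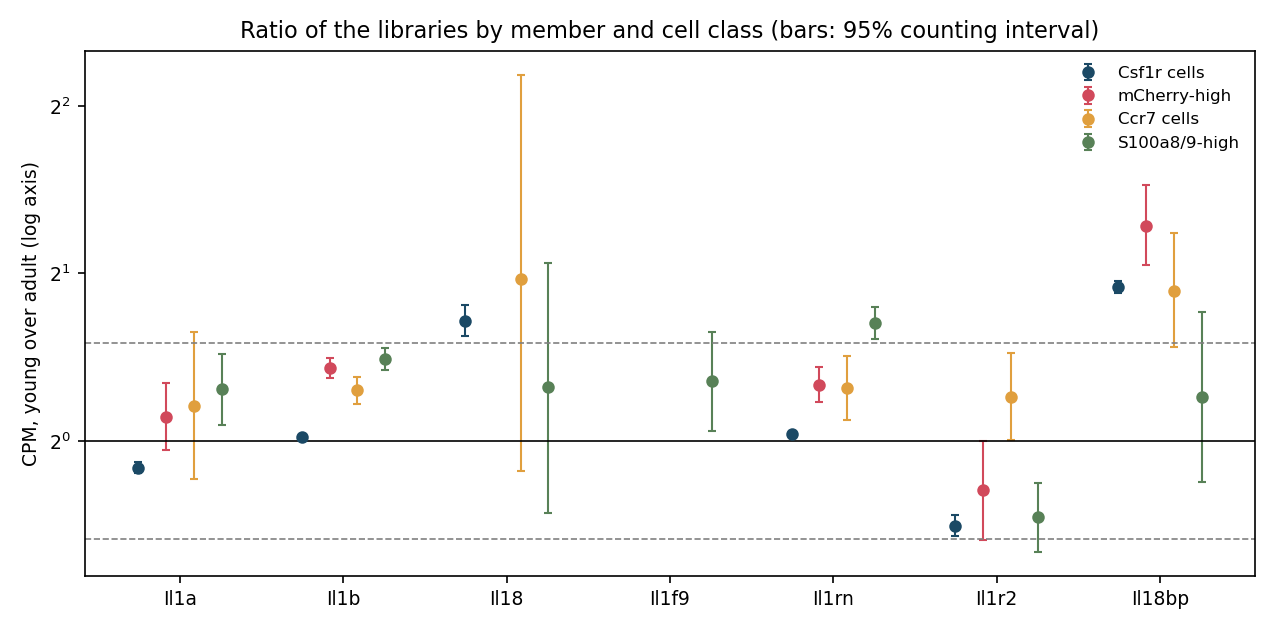
Ratio of young over adult CPM (log axis) for each member at 10 CPM or more in 4 cell classes; bars are 95% counting intervals and dashed lines mark 1.5-fold. Il18bp lies above 1.5-fold in Csf1r cells (1.89), mCherry-high cells (2.44) and Ccr7 cells (1.86), while Il1b in Csf1r cells lies at 1.02.

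Il18bp was higher in the young library in other classes as well. In Ccr7 cells it stood at 248 against 133 CPM, 1.86-fold (1.47 to 2.36). In mCherry-high cells it stood at 29.0 against 11.9 CPM, 2.44-fold (2.07 to 2.88), where the sum of the 10 macrophage markers was 1281 against 762 CPM; the part of macrophage RNA in this ratio was not tested. In neutrophil-like cells, at 233 against 194 CPM, the ratio of 1.20 had an interval of 0.844 to 1.71. Ccr7 cells had 2 of 6 measured members higher, Il18bp and Il18, and 0 lower, against 14.5% and 13% of all genes, or 7.53% and 2.38% of genes at 100 CPM or more. The Il18 ratio there rested on 19 against 11 UMIs and its interval, 0.885 to 4.55, included 1. In mCherry-high cells 1 of 5 measured members, Il18bp, was higher and 0 were lower (4.29% and 0.948% of all genes).

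Neutrophil-like cells had 1 of 7 members past 1.5-fold, Il1rn, and 0 lower. At their depth 26.1% and 21% of all genes passed, and 14.7% and 9.47% of the genes at 100 CPM or more. Il1rn stood at 6725 against 4128 CPM, 1.63-fold (1.52 to 1.74). Il1b stood at 14207 against 10121 CPM, a ratio of 1.40 (1.34 to 1.47), and Il1r2 at 1135 against 1556 CPM, 1.37-fold lower in the young library (1.19 to 1.58). Scaling to the median gene moved all ratios in this class by 0.13 (log2). Il1rn was then at 0.57, under the limit, and Il1r2 at -0.585, just past it. The neutrophil markers themselves summed to 70270 against 95935 CPM, and Retnlg, a marker of mature neutrophils, was at 646 against 1403 CPM, so the sets differed in more than these genes. The part of that difference in the Il1rn ratio was not tested.

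Csf1r cells were not uniform, and the members followed different states of these cells. Cells were split by 12 marker genes, at 1 UMI or at the top quartile. Il1a, Il1b and Il1rn were all higher in cells rich in Cxcl2, a neutrophil-attracting chemokine. Il1a was 2.56-fold (young) and 3.06-fold (adult) higher, Il1b 1.79-fold and 1.83-fold, and Il1rn 1.76-fold and 1.59-fold. The same genes were lower in cells rich in the complement gene C1qa: by 1.81-fold and 2.26-fold for Il1a, 1.54-fold and 1.48-fold for Il1b, and 1.505-fold and 1.603-fold for Il1rn. Agonists and receptor antagonist thus varied in one direction across these splits. Il1rn stood apart in cells rich in the heme oxygenase gene Hmox1, where it was 1.55-fold and 1.59-fold higher while Il1b differed by a ratio of 0.983 and 1.04.

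Il1r2 marked another set of Csf1r cells. A set high in Klrb1b, Il1r2 and MHC class II genes was known from these data beforehand, so these splits are a description. Cells with a UMI of the lectin receptor Klrb1b held 207 and 221 CPM of Il1r2, against 46.7 and 65.8 CPM in the others, a difference of 4.44-fold and 3.36-fold. In cells rich in the MHC class II gene H2-Ab1 it was 3.798-fold and 3.32-fold higher. Cells with Mgl2, a lectin of alternatively activated macrophages, held 307 and 166 CPM against 67.2 and 83.2 CPM. Arg1-rich cells held less, 35.7 and 45.0 CPM against 81.6 and 123 CPM. The Klrb1b and Mgl2 splits also separated cells by depth (medians of 14160 and 13906 UMIs with Klrb1b against 10000 and 9484 without).

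By sign alone, Il18 and Il1r2 differed in opposite directions, in both libraries, in 9 of the 12 splits. The exceptions were C1qa, where both were lower in both libraries, and Nos2 and Fpr1, where they differed in the same direction in the adult library. Among the 9, the interval for Il18 included 1 in the Cxcl2 split (ratios of 1.05 and 1.07) and the young Mki67 split (0.997). For Il1r2 the interval included 1 in the young Rsad2 split (0.966). Il18 was lower in cells with Klrb1b (24.9 and 15.4 CPM against 55.5 and 35.5) and with Mgl2 (11.1 and 10.8 against 51.5 and 36.4 CPM). In cells with the monocyte gene Ly6c2 it was higher, at 52.0 and 35.2 CPM, by a ratio of 1.54 (1.29 to 1.84) and 2.71 (2.24 to 3.30). Il18 was also higher in cells with the interferon-induced gene Rsad2, by 1.28-fold and 1.70-fold. Il18bp varied least of the 6, with log2 differences between -0.71 and 0.53 over both libraries.

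Il1f9, too rare in Csf1r cells to reach 10 CPM, was 12.8-fold higher (8.93 to 18.3) in the 204 adult cells with Fpr1, a formyl peptide receptor that neutrophils carry, and 2.53-fold higher (1.72 to 3.67) in the 817 young ones, from 55 and 44 UMIs. The adult cell with 27 Il1f9 UMIs was among those with Fpr1, and without it the adult ratio was 6.54 (4.10 to 10.2). In Cxcl2-rich cells it was 3.76-fold and 8.16-fold higher, and 5.74-fold in the adult library without that cell.

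**Figure D4:**
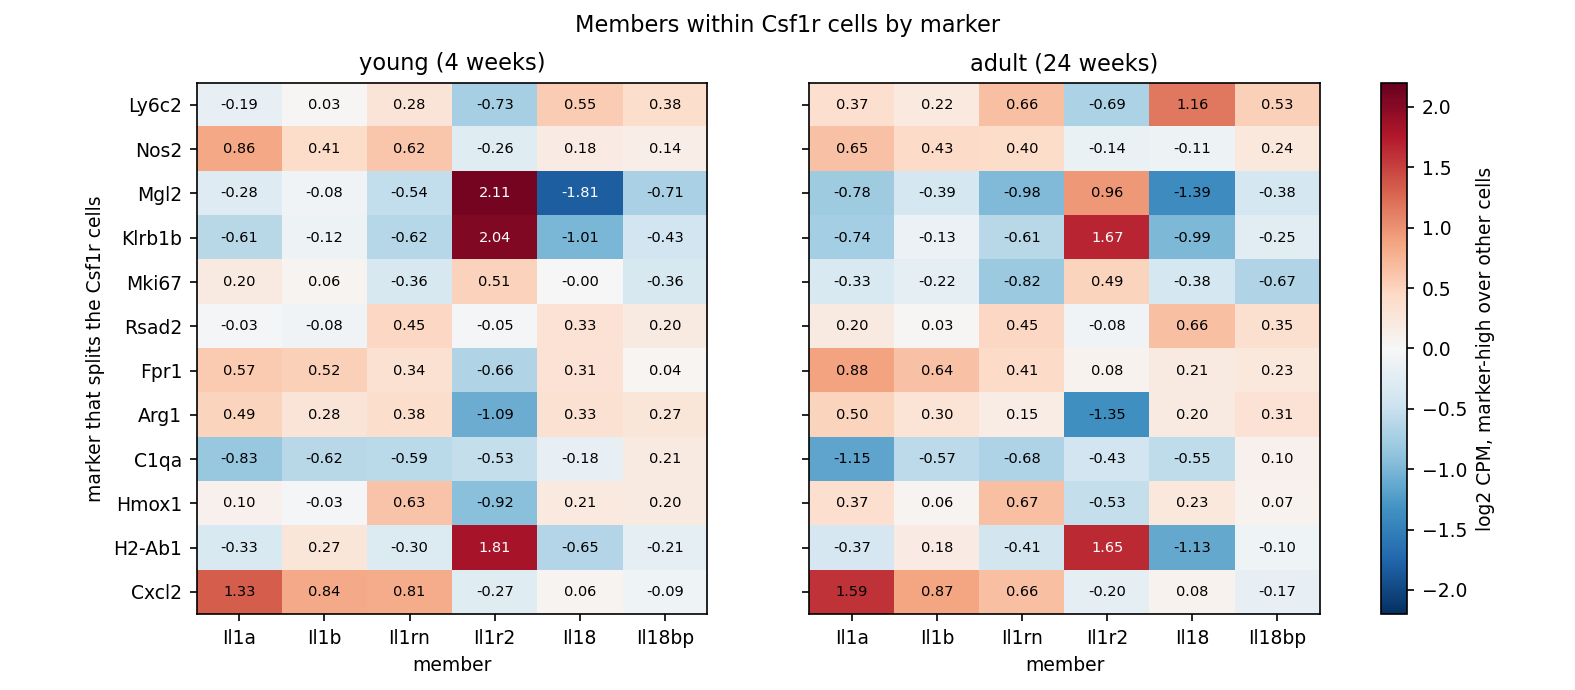
Log2 difference in CPM of 6 members between Csf1r cells high in a marker and the other Csf1r cells, for 12 markers in the young (left) and adult (right) library; red is higher in the marker-high cells. Il1r2 is red for Klrb1b (2.04 and 1.67) and H2-Ab1 where Il18 is blue, and Il1a, Il1b and Il1rn are red for Cxcl2 and blue for C1qa.

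The libraries differed in these states: Mgl2 was detected in 1.07% of young and 16.0% of adult Csf1r cells, Ly6c2 in 91.4% and 80.3%, and Nos2 in 73.9% and 52.9%. The young to adult ratio was therefore read within each of the 24 subsets, which overlap and are not independent. Il18bp was higher in the young library in 24 of 24 subsets, from 1.44-fold in cells with Mgl2 (221 against 154 CPM) to 2.35-fold in cells with Mki67, a gene of dividing cells. Il18 was also higher in 24 of 24, and past 1.5-fold in 18. It ranged from 1.02-fold in cells with Mgl2 (11 against 108 UMIs; interval 0.496 to 1.90) to 2.61-fold in cells without Ly6c2. Among the cells without Mgl2 the Il18 ratio was 1.41 (1.32 to 1.51) and among those with Ly6c2 it was 1.48 (1.39 to 1.58). It was larger among the cells with Nos2, at 1.77 (1.63 to 1.92). Il18bp was at 1.80 both among the cells without Mgl2 and among those with Ly6c2.

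**Figure D5:**
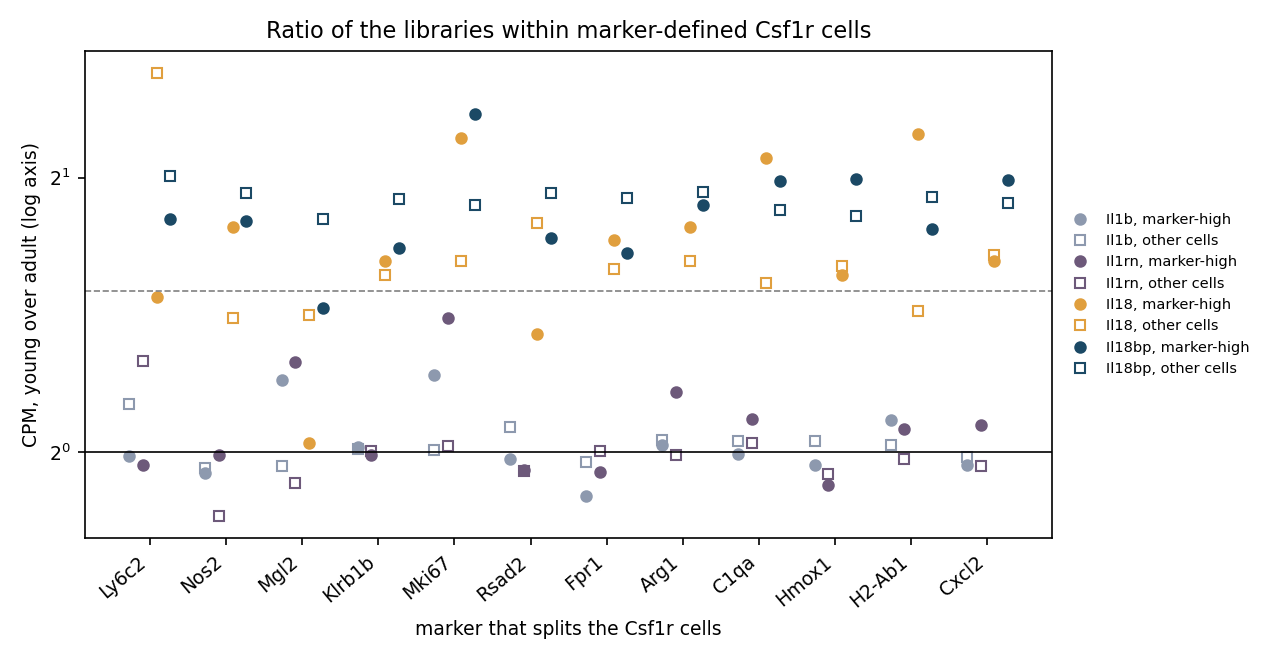
Young over adult CPM (log axis) of Il1b, Il1rn, Il18 and Il18bp inside marker-high (filled circles) and other (open squares) Csf1r cells for 12 markers; the solid line is a ratio of 1 and the dashed line 1.5-fold. Il18bp lies between 1.44 and 2.35 in all 24 subsets, and Il1b between 0.896 and 1.22.

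Il1b stayed between 0.896 and 1.22 and Il1rn between 0.851 and 1.40 in the 24 subsets. Il1r2 was lower in the young library in 23 of 24. The exception was the cells with Mgl2, at 307 against 166 CPM, a ratio of 1.85 (1.63 to 2.09) that rests on 57 young cells.

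Cell by cell, the agonists of the interleukin 1 receptor went together in Csf1r cells. After thinning, Il1b was detected in 95.03% of young and 94.8% of adult cells with Il1a and in 83.6% and 83.0% of those without. Il1rn was found in 74.3% and 74.0% of the Il1a cells, against 60.9% and 59.2% of the others. Il18 and Il18bp showed no such pairing: Il18bp was detected in 51.0% (46.7 to 55.4) and 32.0% (26.5 to 37.9) of cells with Il18 and in 48.3% (46.8 to 49.7) and 30.1% (28.7 to 31.6) of cells without, and these intervals overlap.

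The genes most like each member were ranked among 9258 genes by Pearson's r of log-scaled UMIs. It was taken over the 5342 young and 4213 adult Csf1r cells, and the lower of the 2 values gave the rank. Cells of a library differ in depth and are not replicates, so r is a description. Il1a went with Il1b (0.40 and 0.44), Cxcl2 and the lipopolysaccharide co-receptor Cd14. Il1b went with Cd14 (0.45 and 0.46), Il1a and the prostaglandin synthase Ptgs2. Il1rn went with Cd14 (0.33 and 0.33), the protease inhibitor Cstb and the activin subunit Inhba. Il1r2 went with Klrb1b (0.36 and 0.34), P2ry10 and the class II gene H2-Eb1. Il18bp went with the class I light chain B2m (0.35 and 0.36), Aif1 and the protease Ctss. Il18 had the weakest, Ifitm3 and Plac8, both at 0.21 in the young library. Il18 and Il18bp themselves had r of 0.12 and 0.04.

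The rest of the pathway was examined from lists of genes by role. In Csf1r cells 0 of the 9 receptors and 0 of the 5 other ligands reached 10 CPM. The signalling receptor Il1r1 was at 0.426 and 0.237 CPM. Receptors appeared elsewhere. The interleukin 33 receptor Il1rl1 was at 120 and 63.0 CPM in mCherry-high cells (1.91-fold; 1.77 to 2.06), against 1.04 and 0.648 CPM in Csf1r cells. Il18r1 was at 72.5 and 115 CPM in T cells (21 and 62 UMIs), and the shared chain Il1rap at 126 and 105 CPM in neutrophil-like cells (33 and 41 UMIs).

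Of the signalling adaptors and kinases, 0 of 11 measured passed 1.5-fold in either direction in Csf1r cells, with a median log2 ratio of 0.08. Peli1 differed most, at 80.4 against 64.4 CPM. Of 12 measured inflammasome genes 1 was higher in the young library, 0 were lower, and the median was 0.12. That gene was Ninj1, whose product ruptures the membrane of dying cells, at 702 against 428 CPM (1.64-fold; 1.61 to 1.67). Casp1, the protease that activates interleukins 1 beta and 18, stood at 116 against 77.0 CPM, a ratio just below the 1.5-fold limit (interval 1.44 to 1.56). The sensor Nlrp3 stood at 193 against 134 CPM, a ratio of 1.45 (1.40 to 1.49). Of 15 measured NF-kB response genes 0 passed in either direction and the median was 0.16. Ccl4 at 1254 against 960 CPM and Tnf at 320 against 254 CPM were above the others, and Nfkb1 was lower, at 87.5 against 113 CPM. Of the processing proteases (2 of 8 measured) and the induced targets (2 of 10 measured) 0 passed; Capn2 stood at 74.0 against 61.1 CPM and Saa3 at 9.02 against 11.1 CPM. The median of all genes tested was 0.04.

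T cells, which are not a usual source of interleukin 1 beta, held 1.13 (young) and 1.85 (adult) Il1b UMIs per cell, which is 3.09% and 5.16% of a Csf1r cell. For Il1rn it was 0.250 and 0.951 UMIs per T cell, but 56 of the 97 adult UMIs lay in 1 cell. Il1r2 was nearest to Csf1r cells among the members above 10 CPM, at 0.275 and 0.559 UMIs per T cell against 0.782 and 1.11 per Csf1r cell. Of Il18 there were 0 UMIs in young T cells, which allows up to 10.3 CPM, and 6 in adult T cells.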

How the data were processed

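The 2 mouse libraries of mCherry-sorted tumour cells were analysed, 1 per age. The authors deposited raw UMI counts per gene and cell barcode, made with Cell Ranger 3.0.2 and mm10 per the submitters' processing notes; the annotation is not given in the sources used here. Barcodes under 200 genes or above 10% mitochondrial UMIs were left out (468 young and 505 adult); the cells kept had median depths of 9842 and 9660 UMIs. No doublet caller was run. Classes were read in the order mCherry-high, Ccr7, neutrophil-like, Csf1r, T cell. UMIs were summed per class and library and scaled to CPM of the class. Log2 ratios used log2(CPM + 5). A gene counted as measured where either group compared reached 10 CPM, and as higher or lower at 1.5-fold on the CPM themselves. Intervals are exact Poisson (levels), exact binomial conditional on the sum (ratios) or Clopper-Pearson (shares), all at 95%. Shares of cells were also read after thinning to 2000 UMIs (seed 1).

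The members, the gene lists and the markers that split Csf1r cells were chosen with earlier results of these data known. The text names all 7 members, up to 4 measured genes per list furthest from 0 in Csf1r cells, and the 3 genes with the highest r (at least 0.2) per member seen in at least 2% of Csf1r cells; receptors named in other classes were chosen after their values were seen. Gene positions came from GENCODE M21, in which 99.61% of features were found, and promoters from RefSeq (GRCm38.p6). Scripts ran in Python 3.11.15 with numpy 2.4.6, scipy 1.17.1, pandas 2.3.3 and matplotlib 3.10.9 and were tested on simulated data. The 13 alternatives tried are given in the closing section.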

Additional observations from a re-analysis of the deposited data

Results flagged for a closer look

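The 3 genes Il18, Il1rn and Il18bp had opposite directions between the libraries in T cells and in another class; these differences were not tested, and each T cell value rests on few UMIs. Il18 had a log2 young to adult ratio of 0.75 in Ccr7 cells (19 against 11 UMIs) and -1.69 in T cells (0 against 6 UMIs), a difference of 2.44. Il1rn had 0.70 in neutrophil-like cells and -2.23 in T cells (10 against 97 UMIs, 56 of them in 1 adult cell), a difference of 2.93. Il18bp had 1.16 in the cells that met no class rule and -1.39 in T cells (3 against 19 UMIs), a difference of 2.55.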

How the results depend on the processing

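Of 627 values recomputed under 13 alternatives, 558 stayed, 69 moved and 0 called values reversed. A value stayed if it lay within the counting error of the main value. A count of members stayed if it was equal to the main count or within 1.5-fold of it. The Il1f9 ratio in Ccr7 cells (1 against 0 UMIs) had no upper limit of counting error, so it could not move. Its log2 ratio ranged from 0.29 to 1.77. No paired analysis was possible because each age is 1 library. Il18bp kept a log2 ratio of 0.86 to 0.91 in Csf1r cells and stayed past 1.5-fold under all 13. Antagonist UMIs per agonist UMI after thinning were 0.334 (adult Csf1r), 0.418 and 0.415 (young and adult Ccr7), 0.423 and 0.347 (young and adult mCherry-high) and 0.440 (adult neutrophil-like). With equal weight per cell they were 0.332 (adult Csf1r), 0.382 (adult Ccr7), and 0.541 and 0.550 (young and adult neutrophil-like). Without the deepest 6% of cells they were 0.356 and 0.322 (young and adult Csf1r) and 0.538 (adult neutrophil-like). With at least 2 Csf1r UMIs they were 0.352 and 0.310. With at least 5% of UMIs in S100a8 and S100a9 they were 0.561 and 0.440 in young and adult neutrophil-like cells. The number of members higher in the young library became 1 in Csf1r cells with equal weight, in place of 2, and 1 in Ccr7 cells after thinning. In mCherry-high cells it became 3 after thinning, 2 with equal weight and 3 with no minimum CPM, in place of 1. In neutrophil-like cells it became 2 after thinning, 2 without the deepest cells, 4 at the 5% limit and 0 with median-of-ratios scaling, in place of 1. Members lower in the young library became 1 in Ccr7 cells when 1 Ccr7 UMI sufficed and 1 in neutrophil-like cells with median-of-ratios scaling, in place of 0. The causes were not tested. One alternative was chosen after seeing the data: without the cell richest in Il1f9, the ratio of Csf1r cells with Fpr1 over the others was 2.82 in the young and 6.54 in the adult library, in place of 2.53 and 12.8. Depth limits the neutrophil-like cells most: 58.3% of young and 44.4% of adult ones reached 2000 UMIs.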
